A study of Mus musculus with 8 samples.

Results

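The guanylate-binding protein (GBP) genes were followed in the luminal RNA of single mouse thoracic aortas, 4 from EKO mice and 4 from control mice. EKO and control mice were all female, carried floxed Mef2c alleles on both chromosomes (Mef2c f/f) and the tamoxifen-inducible recombinase Cdh5-CreERT2, whose Cdh5 promoter is active in endothelial cells. EKO mice received 5 daily injections of tamoxifen from 10 weeks of age. Control mice were littermates given the vehicle, sunflower seed oil with 10% ethanol. Tissue was collected 14 days after injections began. Tamoxifen was given to EKO mice only, so the drug and the deletion of Mef2c cannot be told apart. The 10 genes named for this family were Gbp2 to Gbp11, and a probe set entered when the platform annotation gave it 1 of these symbols alone. This held for 7 genes with 1 probe set each (Gbp2, Gbp3, Gbp4, Gbp7, Gbp8, Gbp9 and Gbp11), out of 30604 probe sets with 1 symbol. Gbp5, Gbp6 and Gbp10 lay on 2 probe sets that carry several symbols, and no level is given for these 3 genes singly. All 7 passed the filter on level, a mean over the arrays above 6.14, the median of all probe sets, which left 16232 genes. The family was selected on its EKO and control levels on these same arrays, which were known when its members were listed, so the differences between the groups below are descriptions and carry no test.

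Guanylate-binding proteins are large GTPases related to the dynamins. Interferon gamma is their strongest inducer, and type I interferons induce them as well. In infected mouse cells they assemble on the vacuoles of parasites and on bacterial surfaces, together with the immunity-related GTPases (IRG proteins), and so help to break these membranes and to trigger inflammasomes. In human endothelial cells GBP1 is a known marker of the response to inflammatory cytokines. The mouse genes stand in a cluster on chromosome 3 (Gbp2, Gbp3, Gbp5 and Gbp7 among the genes named) and another on chromosome 5 (Gbp4, Gbp6, Gbp8, Gbp9, Gbp10 and Gbp11). They are close paralogues, and probes can read a near copy, so each level is uncertain to that extent.

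Sequence before the transcript start is shown for the measured chromosome 3 genes, because interferon-activated factors bind short elements there. The windows are RefSeq sequence of GRCm38.p6, plus strand, 250 bases up to the base before the start, and such windows were matched for 4 of the 10 genes (Gbp2, Gbp3, Gbp5 and Gbp7). Capitals mark matches to the interferon-stimulated response element, taken as GAAA repeated after a gap of 2 bases, or to the gamma-activated site, TTCNNNGAA, each searched on both strands. Regions are chr3:142620413-142620662 for Gbp2, chr3:142559794-142560043 for Gbp3 and chr3:142530086-142530335 for Gbp7. The RefSeq gene entry of Gbp3 begins at 142560016, inside its window, so the positions given for Gbp3 count from a later annotated start.
Gbp2: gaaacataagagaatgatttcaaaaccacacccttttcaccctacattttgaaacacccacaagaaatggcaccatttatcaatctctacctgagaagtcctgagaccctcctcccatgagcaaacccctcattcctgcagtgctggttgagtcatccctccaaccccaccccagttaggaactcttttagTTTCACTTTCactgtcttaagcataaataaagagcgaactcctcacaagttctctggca
Gbp3: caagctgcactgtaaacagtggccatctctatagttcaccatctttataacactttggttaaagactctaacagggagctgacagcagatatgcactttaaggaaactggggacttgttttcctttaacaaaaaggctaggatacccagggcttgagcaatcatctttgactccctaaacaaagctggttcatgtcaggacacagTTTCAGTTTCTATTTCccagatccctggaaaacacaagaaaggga
Gbp7: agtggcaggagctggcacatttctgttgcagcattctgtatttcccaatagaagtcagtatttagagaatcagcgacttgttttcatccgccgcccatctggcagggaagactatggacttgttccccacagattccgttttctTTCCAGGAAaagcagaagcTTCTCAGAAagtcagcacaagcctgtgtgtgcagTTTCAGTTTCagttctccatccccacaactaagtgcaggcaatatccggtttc

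The response element stood at -59 to -50 from the start of Gbp2, at -53 to -44 in Gbp7, and at 2 overlapping places in Gbp3, -45 to -36 and -39 to -30. Gbp7 also held the gamma-activated site at -106 to -98 and -87 to -79, and no match of one motif overlapped a match of the other. In the window of Gbp5, whose probe set is shared, the response element stood at -165 to -156 and the gamma-activated site at -245 to -237 and -52 to -44. A second annotated start of Gbp3 had no match to either motif. Of 32851 windows of the same length over all genes, 2.98% held the response element and 7.02% the gamma-activated site. These are matches of letters in a window, and binding was not measured.

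Endothelial markers were present in the measured tissue, and so was the adipocyte marker Ucp1. It read 15.78, 11.14, 13.45 and 15.20 on EKO arrays 1 to 4, against 14.38, 11.96, 16.73 and 16.25 on control arrays 1 to 4. Pecam1, the endothelial adhesion molecule, averaged 18.16 ± 0.06 in EKO and 18.19 ± 0.03 in control arrays on the log2 scale of the deposited values (SD, n = 4 each). Together 9 endothelial markers averaged between 13.2 and 13.5 on EKO arrays and between 13.3 and 13.6 on control arrays. The lowest of these array means was that of EKO array 2. Mef2c read 9.56, 9.73, 9.66 and 10.03 on EKO arrays 1 to 4, against 9.62, 9.79, 9.88 and 9.80 on control arrays 1 to 4. Its single probe set covers the whole transcript cluster, so this does not check the deletion. EKO array 2 stood apart for interferon-induced genes, and differences of the groups are given over all arrays with the value without that array in brackets or beside them. Array medians of the negative control probe sets lay between 7.34 and 7.45, and a gene under them on every array is said to be so. Of the 9 endothelial markers Kdr lay under them on every array and the other 8 above them on every array. The labels do not name extraction or hybridisation batches.

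In all 7 genes the mean was higher in EKO aortas, as it was in 44.9% of all genes tested, and in all 7 this rested largely on EKO array 2. The differences lay between 0.37 and 0.84 on the log2 scale, with a median of 0.77, against -0.02 over all genes tested. Without EKO array 2 they lay between 0.01 and 0.28, with a median of 0.14, against -0.01 over all genes. In limma's fit to all genes 0 of the 7 passed an adjusted p of 0.05, and the share called over all genes was 0%, the smallest adjusted p being 0.478. At an unadjusted p under 0.05 the count of members was likewise 0, where 8.93% of all genes were called. In 0 of the 7 genes did the EKO and control arrays separate without overlap, where 3.41% of all genes separated with EKO higher and 2.67% with EKO lower. RNA of a whole flush was measured, so a difference in the number of cells of a type and in RNA per cell cannot be told apart.

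**Figure D1:**
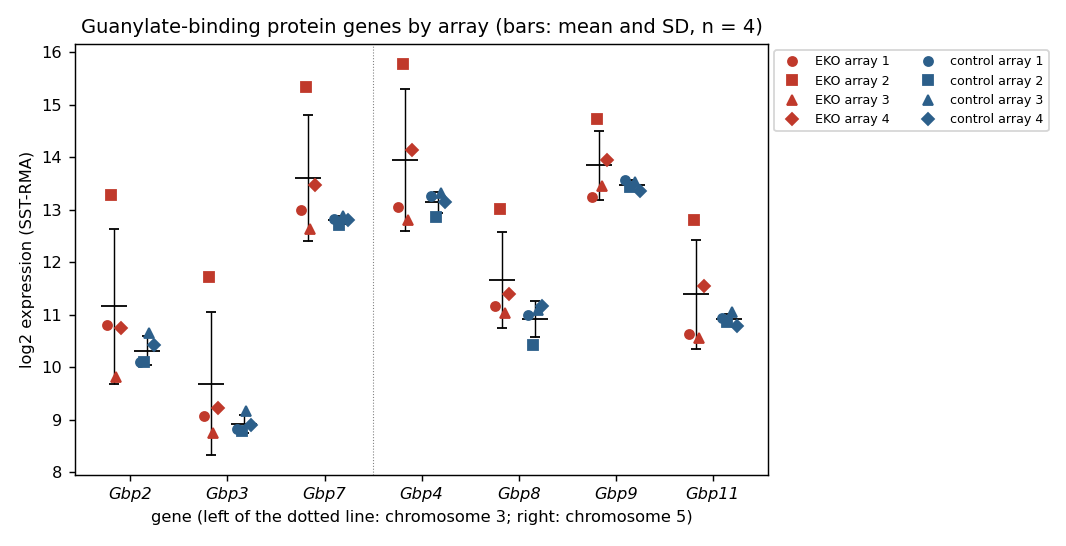
Log2 expression (vertical axis) of the 7 genes on each array, EKO in red on the left of each pair and control in blue, with symbols for arrays 1 to 4 and bars for the mean and SD (n = 4). EKO array 2 (red square) is the highest point of every gene, at 13.27 in Gbp2, where the control arrays end at 10.65, and at 15.34 in Gbp7, where they end at 12.88. Levels of different genes come from different probes and are not compared.

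Of the chromosome 3 genes, Gbp2 encodes a GTPase recruited to Toxoplasma vacuoles and to cytosolic bacteria in mouse cells. It read 10.80, 13.27, 9.81 and 10.74 on EKO arrays 1 to 4, against 10.09, 10.09, 10.65 and 10.42 on control arrays 1 to 4. EKO arrays 1, 2 and 4 lay above every control array and EKO array 3 below every one. The mean was 11.16 ± 1.48 in EKO and 10.31 ± 0.27 in control arrays (SD, n = 4 each), a difference of 0.84 or 1.79-fold, and of 0.14 without EKO array 2. On EKO array 2 alone Gbp2 stood 7.77-fold above the control mean.

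Gbp3, which lies between Gbp7 and Gbp2 in the same cluster, read 9.07, 11.71, 8.75 and 9.22 on EKO arrays 1 to 4, against 8.82, 8.79, 9.16 and 8.89 on control arrays 1 to 4. EKO array 2 was far from all the others, EKO array 4 lay just above the highest control array by 0.06, and EKO array 3 lay just below the lowest. The mean was 9.69 ± 1.36 in EKO and 8.91 ± 0.17 in control arrays (SD, n = 4 each), a difference of 0.77, and of 0.10 without EKO array 2.

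Gbp7 supports autophagy-dependent and oxidative killing in mouse macrophages. It read 12.99, 15.34, 12.63 and 13.46 on EKO arrays 1 to 4, against 12.83, 12.70, 12.88 and 12.81 on control arrays 1 to 4. The 4 control arrays spanned less than any EKO array's distance from its nearest EKO neighbour, and EKO arrays 1, 2 and 4 lay above all of them. The mean was 13.60 ± 1.21 in EKO and 12.80 ± 0.08 in control arrays (SD, n = 4 each), a difference of 0.80, and of 0.22 without EKO array 2.

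Of the chromosome 5 genes, Gbp4 encodes a GTPase that binds the transcription factor IRF7 in mouse cells. It read 13.04, 15.78, 12.81 and 14.14 on EKO arrays 1 to 4, against 13.26, 12.85, 13.31 and 13.14 on control arrays 1 to 4. EKO arrays 2 and 4 lay above every control array, EKO array 1 among them and EKO array 3 just below. The mean was 13.94 ± 1.36 in EKO and 13.14 ± 0.20 in control arrays (SD, n = 4 each), a difference of 0.80, and of 0.19 without EKO array 2. Gbp4 had the largest shift of the family on EKO array 4, 1.00 above the control mean.

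Gbp8 read 11.17, 13.01, 11.03 and 11.39 on EKO arrays 1 to 4, against 10.99, 10.42, 11.09 and 11.17 on control arrays 1 to 4. EKO arrays 2 and 4 were the highest, and EKO arrays 1 and 3 lay among the control arrays, of which array 2 was low. The difference was 0.73, and Gbp8 kept the most of it without EKO array 2, at 0.28.

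Gbp9, which is recruited to Toxoplasma vacuoles in mouse cells, had the smallest shift. It read 13.24, 14.72, 13.45 and 13.95 on EKO arrays 1 to 4, against 13.56, 13.43, 13.52 and 13.36 on control arrays 1 to 4. EKO array 1 lay below every control array, and arrays 2 and 4 above. The difference was 0.37, and 0.08 without EKO array 2.

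Gbp11, annotated by RefSeq as a transcribed pseudogene, read 10.64, 12.80, 10.56 and 11.54 on EKO arrays 1 to 4, against 10.94, 10.86, 11.05 and 10.79 on control arrays 1 to 4. EKO arrays 1 and 3 lay below every control array and arrays 2 and 4 above every one. The difference was 0.48, and 0.01 without EKO array 2.

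The probe sets with several symbols had the same high array. The probe set shared by Gbp2b and Gbp5 read 10.15, 12.03, 10.63 and 10.99 on EKO arrays 1 to 4, against 10.03, 10.20, 10.30 and 10.04 on control arrays 1 to 4. It was the one probe set of the 9 on which EKO array 3 lay above every control array, and its difference of 0.81 was 0.45 without EKO array 2. The probe set shared by Gbp10 and Gbp6 read 11.65, 14.50, 11.27 and 12.33 on EKO arrays 1 to 4, against 11.60, 11.09, 11.63 and 11.48 on control arrays 1 to 4. Its shift on EKO array 2, 3.05 or 8.29-fold above the control mean, was larger than that of any of the 7 genes.

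The 4 EKO arrays differed from each other over the family. The highest of the 8 arrays was EKO array 2 in 7 of 7 genes, and it was so in 15.4% of all genes tested. It lay at least 1 above the control mean, a step chosen after the values were seen, in 7 of 7 genes, where 0.696% of all genes tested did. Its shift over the control mean ranged from 1.25 in Gbp9 to 2.96 in Gbp2, a median of 2.54 against -0.05 over all genes, and 6 of the 7 were among the 25 genes with the largest shift on that array. The exception was Gbp9, at rank 64 of 16232. EKO array 4 lay above every control array in 7 of 7 genes, where 25.9% of all genes did, by shifts of 0.30 to 1.00 over the control mean, and was the second highest array in 6 of 7, the exception being Gbp2. The share over all genes for the second place was 15.2%.

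EKO arrays 1 and 3 lay near or below the control arrays. EKO array 3 was below every control array in 5 of 7 genes (Gbp2, Gbp3, Gbp4, Gbp7 and Gbp11), where 25.9% of all genes were, with a median shift of -0.17. EKO array 1 was above every control array in 2 of 7 genes, Gbp2 and Gbp7, where 17.6% of all genes were, and below every one in 2 of 7, Gbp9 and Gbp11, where 20% of all genes were. On EKO array 1 the 3 chromosome 3 genes averaged 0.28 above the control mean and the 4 chromosome 5 genes -0.08. On EKO array 4 this order was turned, with 0.46 for chromosome 3 and 0.65 for chromosome 5, and on EKO array 2 the averages were 2.76 and 1.97.

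**Figure D2:**
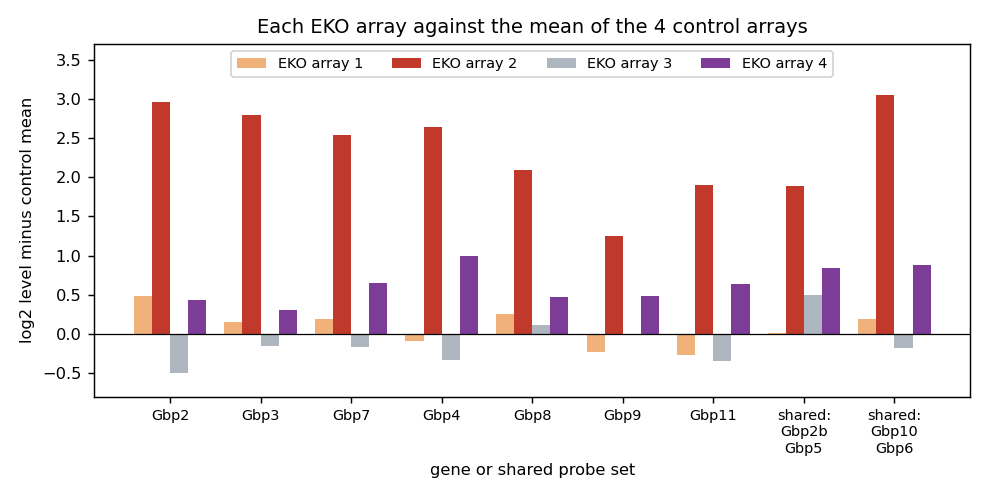
Log2 level on each EKO array minus the mean of the 4 control arrays (bars, vertical axis) for the 7 genes and the 2 shared probe sets. EKO array 2 is the tallest bar throughout, from 1.25 in Gbp9 to 3.05 in the probe set shared by Gbp10 and Gbp6, and EKO array 4 is above 0 throughout.

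**Figure D3:**
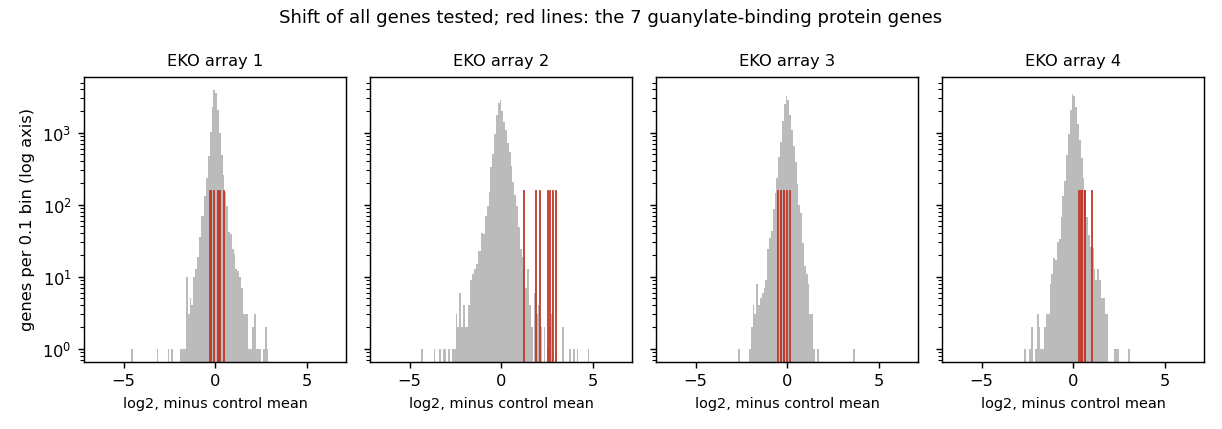
Histograms of the log2 shift from the control mean over 16232 genes on each EKO array (number of genes on a log axis), with red lines at the 7 guanylate-binding protein genes. The lines lie in the far right tail on EKO array 2, and right of 0 on EKO array 4, from 0.30 to 1.00. They lie on both sides of 0 on EKO array 1, from -0.27 to 0.49, and on EKO array 3, from -0.50 to 0.12.

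The family varied widely over the EKO arrays and little over the control arrays. The SD over EKO arrays exceeded that over control arrays in 7 of 7 genes, where 55.4% of all genes did so. Its median was 1.21 in EKO and 0.17 in control arrays, against 0.15 and 0.13 over all genes tested. Without EKO array 2 the median SD over the EKO arrays was 0.41, against 0.14 over all genes. The most uniform gene over control arrays was Gbp7 (SD 0.08) and the least uniform Gbp8 (SD 0.34).

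The 7 genes followed each other over the arrays, again largely through EKO array 2. Over 8 arrays Pearson r between pairs of genes ranged from 0.88 (Gbp2 with Gbp9) to 0.99 (Gbp4 with Gbp11), with a median of 0.95 over 21 pairs, and the median Spearman rho was 0.76. With the group means taken out of each array the median r was 0.94. Without EKO array 2 the median r was 0.67, and without EKO arrays 2 and 4, the farthest from the median, it was 0.48, with pairs between -0.50 and 0.91. These are descriptions over few arrays, the genes share arrays and possibly probes, and the likeness rests on those 2 arrays.

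The genes outside the family whose levels were most like its mean over the 8 arrays, among 10870 genes with established symbols, were Parp12, Igtp, Tap1, Wars, Meak7, Irgm1, Ctsw and Samhd1, with Pearson r from 0.969 for Samhd1 to 0.987 for Parp12. Igtp, an IRG protein, read 10.50, 14.07, 9.88 and 11.23 on EKO arrays 1 to 4, against 10.25, 9.53, 10.06 and 9.86 on control arrays 1 to 4. Tap1, the peptide transporter of antigen presentation, read 9.83, 11.55, 9.48 and 9.96 on EKO arrays 1 to 4, against 9.69, 9.28, 9.71 and 9.71 on control arrays 1 to 4. Both had the same high array as the family. Wars, a tryptophanyl-tRNA synthetase, had the highest rank correlation of the 8 (rho 0.976) and the highest r without EKO array 2 (0.914). Ctsw, a cathepsin of cytotoxic lymphocytes, read 6.06, 6.89, 6.04 and 6.26 on EKO arrays 1 to 4, against 5.99, 5.82, 6.11 and 6.10 on control arrays 1 to 4. The whole range of Ctsw and that of Meak7 lay under 7.34, the lowest array median of the negative control probe sets. Without EKO array 2 the r of the 8 genes lay between 0.790 and 0.914.

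Receptors and transcription factors of interferon gamma signalling, upstream of the family, had a small median difference. Among 9 tested genes the EKO mean was the higher one in 8, with a median of 0.07 (0.04 without EKO array 2), and 0 passed the adjusted threshold. Irf1, the interferon-induced factor that binds the response element, read 8.57, 9.14, 8.59 and 8.87 on EKO arrays 1 to 4, against 8.49, 8.58, 8.44 and 8.58 on control arrays 1 to 4, with EKO arrays 2 and 4 highest. Irf1 differed by 0.27 (0.16 without EKO array 2). Ifngr1, a chain of the interferon gamma receptor, averaged 13.37 ± 0.23 in EKO and 13.19 ± 0.02 in control arrays (SD, n = 4 each), a difference of 0.17 (0.06). Ciita, the activator of class II genes, differed by 0.34 (0.06) and was above the negative control probe sets on 1 array. Irf8, an interferon regulatory factor of myeloid cells, lay under them on every array. Ifng itself did not pass the level filter. Named after its values were seen, it read between 4.77 and 5.08 on EKO arrays and between 4.42 and 4.79 on control arrays, under the negative control probe sets.

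Type I interferon signalling genes had a higher EKO mean in 7 of 9 tested genes and a median of 0.15 (0.08 without EKO array 2). Irf9 differed by 0.25 (0.13) and the kinase Tyk2 by -0.20 (-0.20). The deubiquitinase Usp18, at 0.41 (0.24), and Irf7, at 0.15 (0.09), lay under the negative control probe sets on every array. Antiviral genes had 12 of 14 higher, with a median of 0.19 (0.11 without EKO array 2), and EKO array 2 was the highest array in 12 of 14, against 15.4% of all genes tested. Ifit3 differed by 0.67 (0.44 without EKO array 2), Ifit1 by 0.60 (0.39), Xaf1 by 0.66 (0.40) and Isg15 by 0.19 (0.11). The 2 lower genes, named after their values were seen, were Rsad2 at -0.75 (-0.98) and Eif2ak2 at -0.0045 (-0.04). Ifit1 was above the negative control probe sets on 3 arrays and Isg15 on 4. In limma's fit 0 genes of either list passed the adjusted threshold.

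Partners and fellow targets of interferon gamma were mixed. The EKO mean was the higher one in all 6 tested IRG genes, with a median of 1.13 (0.60 without EKO array 2), and EKO array 2 was highest in all 6. Among them Irgm2 differed by 0.76 (0.58), Gm5431 by 0.36 (0.29), Gm4951 by 1.56 (1.30) and Iigp1 by 1.61 (0.83). All 13 tested antigen presentation genes were higher, with a median of 0.34 (0.15 without EKO array 2), and Psmb10, an immunoproteasome subunit, differed by 0.34 (0.23), Psmb8 by 0.41 (0.19), the proteasome activator Psme1 by 0.16 (0.08) and the class II chain H2-Aa by 0.89 (0.50). Of 9 other interferon gamma targets named 5 were tested, and EKO array 2 was highest in 4 of the 5. The EKO mean was the higher one in 4, with a median of 0.07 that was -0.10 without EKO array 2. There the checkpoint ligand Cd274 differed by 0.39 (0.04), Icam1 by 0.14 (0.04), Ido1 by 0.06 (-0.15) and Gch1 by -0.21 (-0.10). Irgm2 and H2-Aa were above the negative control probe sets on 6 arrays each, Gm4951 on 7 and Cd274 on 5. In each of these lists 0 genes passed the adjusted threshold.

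Cxcl9, a chemokine induced by interferon gamma, was outside the level filter and is named after its values were seen. It read 5.01, 8.67, 4.76 and 5.26 on EKO arrays 1 to 4, against 4.85, 4.55, 4.79 and 4.77 on control arrays 1 to 4. EKO array 2 was the one array above the negative control probe sets, and the order of the other arrays lies below them. Cxcl10, Cxcl11 and Nos2, the other such targets outside the filter, were also highest on EKO array 2. They lay under the negative control probe sets on every array, so that order is not read.

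The machineries through which the family acts were measured as well. Of 9 tested ATG8 conjugation genes, which direct these GTPases to vacuoles in mouse cells, 8 were lower, with a median of -0.07 (-0.04 without EKO array 2). Gabarapl2 differed by -0.25 (-0.23), Map1lc3b by -0.10 (-0.05), Atg16l1 by -0.11 (-0.04) and Atg3 by 0.14 (0.16). EKO array 2 was the highest array in 0 of the 9, beside 15.4% of all genes. Of 8 inflammasome genes 5 were higher, with a median of 0.07 (0.02 without EKO array 2), and EKO array 2 was highest in 1 of the 8, a share near that of all genes. Aim2, the sensor of cytosolic DNA, differed by -0.30 (-0.28), Il18 by -0.33 (-0.24), Il1b by 0.41 (0.29) and Ifi204 by 0.64 (0.36). Il18 was above the negative control probe sets on 2 arrays, and Il1b and Ifi204 on 3 each. Of other GTPases of the dynamin superfamily, Atl3 differed by 0.13 (0.17), Dnm2 by -0.12 (-0.06) and Gvin1 by 0.03 (-0.22). In limma's fit 0 genes of these 3 lists passed the adjusted threshold.

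**Figure D4:**
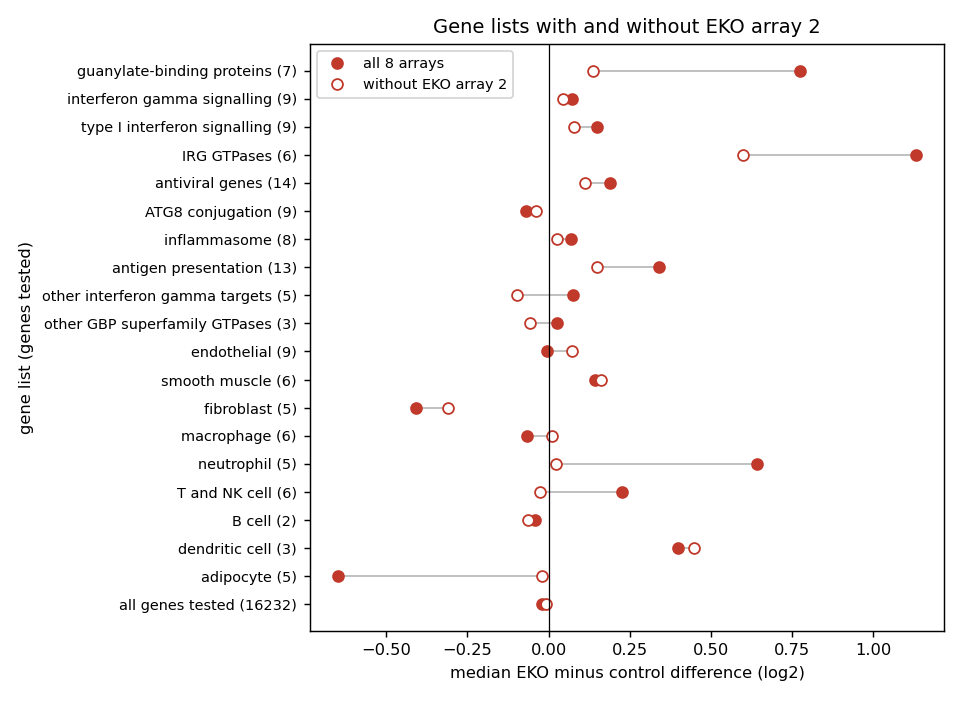
Median EKO minus control difference on the log2 scale (horizontal axis) of the family, of each gene list and of all genes tested, over all 8 arrays (filled) and without EKO array 2 (open), with the number of genes tested in brackets. The family's median is 0.77 over all arrays and 0.14 without EKO array 2, and that of the IRG genes is 1.13 and 0.60.

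Of the leukocyte markers, those of neutrophils and part of those of T and NK cells were highest on EKO array 2, like the family. EKO array 2 was highest in 0 of the tested macrophage, B cell and dendritic cell markers. The 5 tested neutrophil markers averaged 9.32 on EKO array 2 and between 6.67 and 7.47 on the other EKO arrays, against 6.07 to 7.94 on control arrays. All 5 were highest on EKO array 2, and the median difference between the groups was 0.64 (0.02 without that array). S100a8 differed by 1.15 (0.29) and S100a9 by 1.13 (0.40), and they were above the negative control probe sets on 6 and 5 arrays. Ngp differed by 0.64 (-0.06) and was above the negative control probe sets on 1 array, and Ltf, at 0.13 (0.02), lay under them on every array. On control array 4, the second highest of the 8 for these markers, the mean of the guanylate-binding proteins was 11.51, against 11.50 over all control arrays. On EKO array 4 both were above their control means, the family at 12.06 against 11.50 and these markers at 7.47 against 6.91. The 6 tested T and NK cell markers, of 10 named, averaged between 6.61 and 7.82 on EKO arrays and between 6.26 and 7.02 on control arrays, and EKO array 2 was highest in 4 of the 6. Gzmb, a cytotoxic granule protease, read 5.71, 8.69, 5.79 and 6.35 on EKO arrays 1 to 4, against 5.76, 5.57, 6.68 and 5.99 on control arrays 1 to 4. Nkg7 differed by 0.37 (0.05), Cd3d by 0.20 (-0.01) and Cd3e by 0.23 (-0.08). Gzmb, Cd3d and Cd3e were above the negative control probe sets on EKO array 2 alone, and Nkg7 on 7 arrays. Cd4, Cd8a and Ncr1 did not pass the level filter. Each was highest on EKO array 2, but all 3 lay under the negative control probe sets on every array, so that order is not read. With the neutrophil marker mean as a covariate the mean difference of the family was 0.22, against 0.69 without a covariate. With the array median over all probe sets as the covariate it was 0.12. Both covariates were highest on EKO array 2, and leaving out that array alone gave 0.15. These fits therefore cannot tell a covariate from that array. The part of leukocytes in the family's values was not tested.

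Markers of other cell types were partly under the negative control probe sets, which limits what their levels show. The 6 tested macrophage markers averaged between 7.22 and 7.91 on EKO arrays and between 6.92 and 7.83 on control arrays, and EKO array 2 was the lowest EKO array. Csf1r, above the negative control probe sets on 4 arrays, differed by 0.44 (0.70 without EKO array 2). Cd68, above them on 7 arrays, differed by 0.17 (0.24). Adgre1, Mrc1 and 1 other of the 6 lay under the negative control probe sets on every array. So did both tested B cell markers, 1 of 9 endothelial (Kdr), 1 of 3 dendritic cell, 2 of 5 fibroblast and 3 of 6 smooth muscle markers. The median differences were 0.40 (0.45) for dendritic cell, -0.41 (-0.31) for fibroblast, 0.14 (0.16) for smooth muscle and -0.65 (-0.02) for adipocyte markers. The mean of the 5 adipocyte markers was lowest on EKO array 2, at 8.04, against 8.95 to 10.94 on the other EKO arrays and 8.54 to 11.43 on control arrays. Of the endothelial markers Cdh5 differed by 0.08 (0.06), Esam by 0.11 (0.13), Tek by -0.11 (-0.10) and Kdr by 0.11 (0.10).

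**Figure D5:**
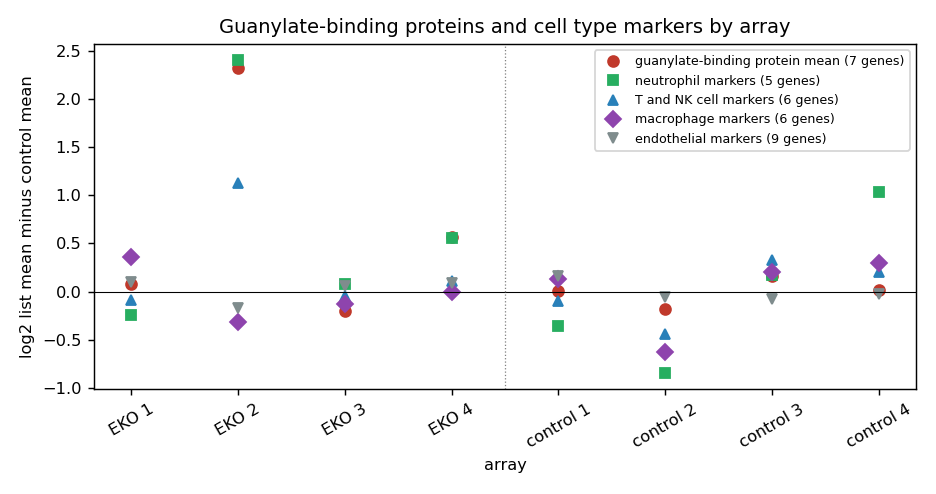
Mean log2 level of the 7 guanylate-binding protein genes and of marker lists on each array, minus the mean of the control arrays (vertical axis), EKO arrays left of the dotted line and control arrays right of it. The family, the neutrophil markers and the T and NK cell markers are highest on EKO array 2. On EKO array 4 the family and the neutrophil markers both lie above their control means. On control array 4 the neutrophil markers are raised and the family is near its control mean.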

How the data were processed

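Each of 8 samples was 1 Affymetrix Mouse Transcriptome Array 1.0, hybridised with cDNA from 5 ng of total RNA, per the labels' protocols. The authors deposited log2 values, 1 for each transcript cluster, which per the labels come from the SST-RMA method of the Expression Console software. The version and genome build are not given in the sources used here, and log2 differences are on the SST-RMA scale. Probe sets were named through the platform annotation and RefSeq symbols (GRCm38.p6). Where a symbol had several probe sets the one with the highest mean was used. Genes with a mean above 6.14 were fitted with limma 3.58.1 in R 4.3.3 (lmFit, eBayes, no covariate), with Benjamini-Hochberg adjustment over 16232 genes, and the fit was tested on simulated data. The labels do not say more than that each array is a separate aorta, and the number of arrays limits the precision.

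The members and the gene lists were chosen with earlier results of these data known. Genes were named by a rule: every member, Mef2c, up to 4 genes of each pathway list with the smallest p, markers likewise or summarised by list, and the 8 genes most like the family's mean by Pearson r. Predicted, clone, pseudogene and small RNA symbols were left out of the latter. Alternatives covered the level filter, probe set choice, normalization, variance model, array weights, replicate block, covariates and leaving out each array.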

Additional observations from a re-analysis of the deposited data

Results flagged for a closer look

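In Gbp3, EKO array 2 stood apart from the other EKO arrays. Its gap to the next array was 0.843 of the whole range of the 4 EKO arrays, which is above Dixon's critical value at the 95% level for 4 samples. The family was selected on these levels with EKO array 2 known to be high, and the 7 genes follow each other closely, so the 1 in 20 groups that chance would give does not apply and the value is a description. In the other 6 genes the same array was highest, with a gap that took a smaller share of the range.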

How the results depend on the processing

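The mean difference of the 7 genes was 0.69 and stayed above 0 under every alternative run. It was 0.62 with each array centred on its median and 0.53 with array weights. With the neutrophil marker mean as a covariate it was 0.22, and with the array median 0.12, both covariates being highest on EKO array 2. Leaving out single arrays gave between 0.15 (without EKO array 2) and 0.98 (without EKO array 3). In single genes the difference turned below 0 for Gbp11 (-0.12) and Gbp9 (-0.06) with the array median as a covariate. Limma called 0 of the 7 genes and 0 genes in all under every alternative, leaving out arrays included. The count of genes whose groups did not overlap was between 0 and 2 when single arrays were left out, the 2 being Gbp2 and Gbp7 without EKO array 3. The median r between the genes was between 0.67 (without EKO array 2) and 0.97 (without control array 2). Replicate numbers did not pair the arrays: same-numbered arrays deviated together with r of -0.16, 0.21, -0.24 and 0.13, and with the replicate number as a block the mean difference was 0.69 and 0 genes were called. The number of arrays and the possible sharing of probes between paralogues limit all values.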
